A study of Mus musculus with 10 samples.

Results

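Adipocyte genes are transcribed in fat cells to store triglyceride, to take up fatty acids and to make secreted hormones. In skeletal muscle, fat cells are rare and lie between the fibers, and they can form during regeneration from fibro-adipogenic progenitors (FAPs), the resident connective tissue cells. The 10 genes described here were taken by name from a list of adipocyte genes. The rule used no measured value, although the list was drawn up with earlier results of these data known. They are 10 of the 25700 genes counted. The members are *Plin1*, *Cidec* and *Plin4*, which coat lipid droplets, *Adipoq*, *Cfd*, *Lep* and *Retn*, which encode secreted proteins, and *Fabp4*, *Cd36* and *Lpl*, which handle fatty acids. They were read in each mouse as a measure of the fat in the muscle sample.

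Tibialis anterior (TA) muscle came from 5 mice titled Pax7Cre and 5 titled miR-501KO, all C57BL/6 males of 12 weeks, at day 6 after cardiotoxin (CTX), a snake toxin that destroys fibers and starts their regeneration. The labels give the genotypes as wild type and miR-501 −/−. By the study's methods the controls also carry Pax7Cre, a non-inducible Cre recombinase made in cells that express the myogenic stem cell gene *Pax7*, and the knockout used for this experiment also carries a floxed miR-501 on its X chromosome, so that the deletion is confined by design to the myogenic lineage. White fat cells and the FAPs that form them lie outside that lineage, whereas brown fat cells descend in large part from progenitors that have expressed *Pax7*. The libraries were made from whole muscle and held between 18609222 and 24753258 counts per mouse, with a median of 21438248 in Pax7Cre and 23534067 in miR-501KO mice. The miR-501 precursor was not analysed here, so the genotype labels were not checked against the deleted gene.

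Fat cells are recognised by a small set of proteins. Perilipin 1 and CIDEC let a fat cell hold its fat in a single large droplet, and the transcription factors PPARG and C/EBP alpha switch on most of the genes below. Adiponectin, leptin, resistin and adipsin (complement factor D) are released into the blood, where leptin reports fat stores to the brain and adiponectin raises insulin sensitivity. In muscle, *Adipoq*, *Plin1*, *Cidec*, *Lep*, *Retn* and *Cfd* are regarded as restricted to fat cells. The other 4 are shared: *Fabp4* and *Cd36* are also made by capillary endothelium and macrophages, *Cd36* and *Lpl* by muscle fibers, and *Plin4* by fibers as well.

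The promoters of 3 restricted genes are shown because each holds a C/EBP motif. The sequences are those of RefSeq on GRCm38.p6, from 250 bases before to 50 bases after the annotated start of transcription, 5′ to 3′ on the strand of the gene. *Plin1* lies at chr7:79732727-79733026 on the minus strand, *Cidec* (the second of 2 annotated starts) at chr6:113434715-113435014 on the minus strand and *Lep* at chr6:29059971-29060270 on the plus strand. Capitals mark matches to the C/EBP motif TTGCNNAA.
Plin1: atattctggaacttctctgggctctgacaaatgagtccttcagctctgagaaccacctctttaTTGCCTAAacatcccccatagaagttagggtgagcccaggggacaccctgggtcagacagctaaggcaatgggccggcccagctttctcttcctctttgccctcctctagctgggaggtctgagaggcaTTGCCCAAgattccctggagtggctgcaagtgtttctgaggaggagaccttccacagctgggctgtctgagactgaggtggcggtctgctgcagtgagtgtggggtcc
Cidec: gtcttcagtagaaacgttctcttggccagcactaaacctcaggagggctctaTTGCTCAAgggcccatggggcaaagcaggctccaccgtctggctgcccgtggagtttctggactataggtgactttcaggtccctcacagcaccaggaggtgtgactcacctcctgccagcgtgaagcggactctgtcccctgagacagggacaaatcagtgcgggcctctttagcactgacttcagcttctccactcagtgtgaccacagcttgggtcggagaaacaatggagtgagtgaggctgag
Lep: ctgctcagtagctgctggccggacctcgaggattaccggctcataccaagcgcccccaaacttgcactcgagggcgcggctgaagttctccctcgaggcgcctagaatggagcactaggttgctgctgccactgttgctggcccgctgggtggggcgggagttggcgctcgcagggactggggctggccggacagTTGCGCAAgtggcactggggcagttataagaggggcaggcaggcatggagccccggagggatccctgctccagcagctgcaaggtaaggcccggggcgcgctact

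The *Plin1* promoter held the motif at −187 and −58 from the start, that of *Cidec* at −198 and that of *Lep* at −55, where it reads the same on both strands. Of 32851 promoters of this length, 10.8% held the motif on either strand. Promoters were on hand for 8 of the 10 genes, those of *Fabp4* and *Lpl* being the others. Of these, the promoter of *Cd36* held the letters AGGTCA, the core of the PPAR response element, at −228 on the strand opposite to the gene. Of all promoters, 16.3% held these letters on either strand. The full element, 2 copies of AGGTCA in a row with 1 base between them, was in none of the promoters of these genes and in 0.0396% of all. A match of letters is a description and not a measured binding site.

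The deleted miRNA, with the seed (bases 2 to 8) in capitals, is written here to show which site the genes were searched for.
miR-501-3p: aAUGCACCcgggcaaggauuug

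It lies at chrX:7241270-7241291 on the minus strand of GRCm38.p6. The complement of the seed, GGTGCAT, was in an annotated 3′ untranslated region of 0 of the 10 adipocyte genes, beside 7.06% of genes with such a region (1491 of 21109).

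The label of the set was checked on its defining genes, and *Adipoq*, *Plin1*, *Cidec*, *Lep* and *Cfd* had reads in each of the 10 mice and *Retn* in 9. All 10 members passed the filter on low counts. The droplet coat gene *Plin1* (ENSMUSG00000030546, chr7:79720218-79732903 on GRCm38, minus strand), which encodes the protein that guards stored fat from lipases, was at 2.37, 5.91, 9.30, 5.62 and 7.74 CPM (counts scaled to the size of each library by edgeR's TMM method) in Pax7Cre mice 1 to 5. The miR-501KO mice 1 to 5 had 0.921, 7.27, 8.45, 4.98 and 5.76 CPM, from 23 to 203 reads. The range of the knockouts enclosed nearly the whole range of the controls, and mouse 1 was the lowest of each genotype. Its log2 fold change, miR-501KO over Pax7Cre, was −0.17 (SE 0.44, 95% interval −1.13 to 0.78, n = 5 per genotype, edgeR quasi-likelihood adjusted p = 1.00), and it was 0.11 without miR-501KO mouse 1 and 0.021 without Pax7Cre mouse 3.

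*Cidec* (ENSMUSG00000030278, chr6:113424634-113435760, minus strand), whose product enlarges droplets by moving lipid between them, had the widest range of the members found in every mouse. It was at 1.57, 4.12, 5.44, 2.29 and 4.11 CPM in Pax7Cre and at 0.200, 4.72, 4.16, 1.64 and 2.50 CPM in miR-501KO mice, a 27.2-fold range over 5 to 103 reads. The value of miR-501KO mouse 1 rests on 5 reads. The groups overlapped, with a log2 fold change of −0.40 (SE 0.53, 95% interval −1.54 to 0.75, edgeR adjusted p = 1.00).

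*Plin4* (ENSMUSG00000002831, chr17:56100591-56109803, minus strand) coats small new droplets. Its exons overlap those of *Hdgfl2* on the opposite strand, and the strand setting of the counting is not given in the sources used here, so its reads are uncertain. Pax7Cre mice had 17.6, 51.2, 16.8, 10.8 and 20.3 CPM, and miR-501KO mice 5.68, 8.97, 15.6, 29.0 and 29.4 CPM. The highest value was in Pax7Cre mouse 2 and the next 2 were in knockouts 5 and 4, an upper order unlike that of *Plin1* and *Cidec*. The lowest value was in miR-501KO mouse 1, as it was for *Plin1* and *Cidec*. The log2 fold change was −0.40 (SE 0.47, 95% interval −1.41 to 0.62, edgeR adjusted p = 1.00) and became 0.11 without Pax7Cre mouse 2.

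Among the secreted proteins, *Adipoq* (ENSMUSG00000022878, chr16:23146536-23158028, plus strand) encodes adiponectin, the hormone that marks mature fat cells. Its level in Pax7Cre mice was 9.27, 15.4, 30.6, 9.99 and 17.3 CPM, and in miR-501KO mice 1.72, 21.5, 21.9, 10.9 and 12.2 CPM, from 43 to 579 reads. Pax7Cre mouse 3 was the highest and miR-501KO mouse 1 the lowest, 17.8-fold apart, and the other 8 mice of both genotypes were interleaved. The log2 fold change was −0.27 (SE 0.49, 95% interval −1.33 to 0.79, edgeR adjusted p = 1.00), and it was 0.078 without Pax7Cre mouse 3 and 0.021 without miR-501KO mouse 1.

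*Cfd* (ENSMUSG00000061780, chr10:79890853-79892655, plus strand) encodes adipsin, the protease that cleaves factor B in the alternative complement pathway, so it also belongs to the complement genes. Pax7Cre mice had 3.45, 21.4, 20.9, 9.27 and 9.99 CPM, and miR-501KO mice 1.08, 17.0, 11.2, 7.95 and 6.70 CPM, a 19.8-fold range. Mouse 1 was again the lowest of each genotype, and mouse 2 the highest. *Cfd* had the most negative log2 fold change of the members, −0.56 (SE 0.55, 95% interval −1.75 to 0.64, edgeR adjusted p = 1.00). With the mouse number as a block it was −0.66 (edgeR unadjusted p = 0.00543, adjusted p = 0.99997). In that fit 1.31% of all genes had an unadjusted p under 0.05, and 0.708% were lower in miR-501KO at that p.

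*Lep* (ENSMUSG00000059201, chr6:29060220-29073877, plus strand), the satiety hormone leptin, had 12 to 42 reads per mouse. It was at 0.537, 2.22, 1.95, 1.24 and 0.735 CPM in Pax7Cre and at 0.600, 0.991, 1.54, 0.954 and 0.975 CPM in miR-501KO mice. All knockout values lay inside the range of the controls (log2 fold change −0.38, SE 0.38, 95% interval −1.20 to 0.43, edgeR adjusted p = 1.00).

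*Retn* (ENSMUSG00000012705, chr8:3655770-3660110, plus strand), which encodes resistin, was the scarcest member, at 1, 12, 10, 15 and 7 reads in Pax7Cre and at 0, 16, 17, 2 and 11 reads in miR-501KO mice. The 0 reads of miR-501KO mouse 1 allow a level of up to 0.120 CPM (3 counts), for counting error only. The low mice of *Retn* were mouse 1 of both genotypes and miR-501KO mouse 4. Its log2 fold change of −0.065 (SE 0.68, 95% interval −1.54 to 1.41, edgeR adjusted p = 1.00) left a wide interval, and its direction is not determined by these data.

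The fatty acid genes stood at far higher counts and varied far less. *Fabp4* (ENSMUSG00000062515, chr3:10204088-10208576, minus strand), which carries fatty acids through the cytosol, was at 280.2, 320.4, 297, 166 and 276 CPM in Pax7Cre and at 219, 255, 282, 256 and 204 CPM in miR-501KO mice. Its lowest value was in Pax7Cre mouse 4, not in miR-501KO mouse 1. The log2 fold change was −0.14 (SE 0.16, 95% interval −0.48 to 0.20, edgeR adjusted p = 1.00). Without that mouse it was −0.27 (edgeR unadjusted p = 0.0233, adjusted p = 0.996), in a fit where 3.24% of all genes had an unadjusted p under 0.05 and 1.67% were lower in miR-501KO at that p.

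*Cd36* (ENSMUSG00000002944, chr5:17781690-17888801, minus strand), the fatty acid receptor of the cell surface, was at 162, 209, 163, 126 and 152 CPM in Pax7Cre and at 159, 138, 159, 192 and 134 CPM in miR-501KO mice. *Lpl* (ENSMUSG00000015568, chr8:68880491-68907448, plus strand), the lipase that frees fatty acids from circulating triglyceride, was at 184, 277, 278, 203 and 218 CPM in Pax7Cre and at 206, 235, 187, 249 and 227 CPM in miR-501KO mice. For both genes the knockout values fell within the range of the controls. The log2 fold change was −0.056 for *Cd36* (SE 0.13, 95% interval −0.35 to 0.23) and −0.070 for *Lpl* (SE 0.13, 95% interval −0.35 to 0.21), each with an edgeR adjusted p of 1.00. Both turned with a single mouse left out, to 0.050 for *Cd36* without Pax7Cre mouse 2 and to 0.0059 for *Lpl* without Pax7Cre mouse 3.

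**Figure D1:**
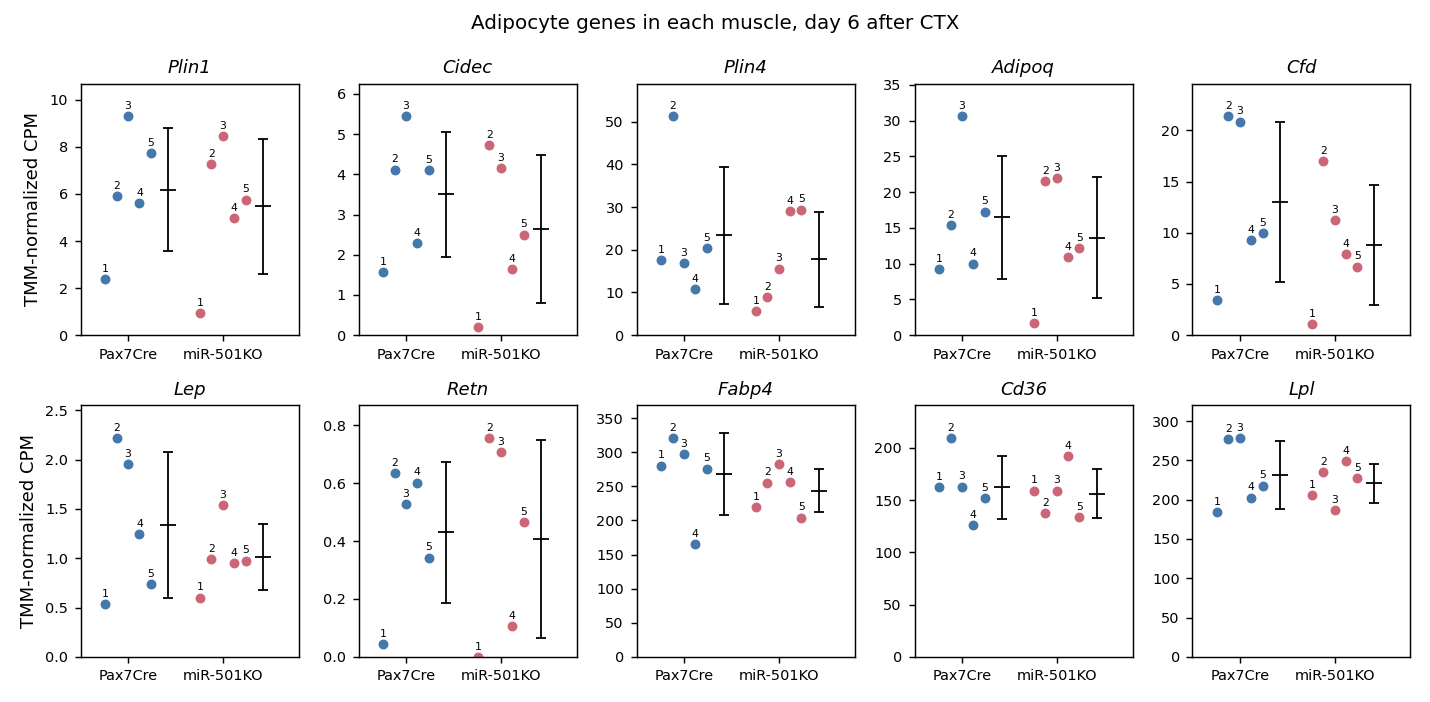
TMM-normalized CPM (linear axes from 0) of each adipocyte gene in the 5 Pax7Cre (blue) and 5 miR-501KO (red) mice, with the mouse number at each point and the mean and SD in black. The groups overlap in all 10 panels, *Adipoq* spans 1.72 to 30.6 CPM, and *Lpl* spans 184 to 278 CPM.

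Taking the members as a whole, 0 of 10 passed an adjusted p of 0.05 in edgeR's test over 14410 genes, where 0% of all genes passed. At an unadjusted p under 0.05, 0 of 10 passed in edgeR and in DESeq2's Wald test, beside 1.05% of all genes in edgeR (0.666% lower and 0.382% higher in miR-501KO). The groups overlapped for all 10, and 0.0763% of all genes were lower in miR-501KO with no overlap (0.0625% higher). The exact two-sided permutation test on the CPM of each gene gave p from 0.357 (*Cfd*) to 0.905 (*Retn*), with 0.00794 as the smallest p that 5 mice against 5 can give. All 10 log2 fold changes were below 0, with a median of −0.22, beside 52.1% of all genes and a median of −0.0042. That count rests on single mice: it was 6 of 10 without Pax7Cre mouse 3 and 7 of 10 without miR-501KO mouse 1 or Pax7Cre mouse 2, and 6 of the 10 members were above 0 in at least 1 fit with a mouse left out. The members are not independent, since the same mice were low for 6 of them, so the shared sign is not 10 separate results. The 95% intervals of the 6 restricted genes reached from below −1 to above 0.4, so they cover a 2-fold decrease, whereas those of *Fabp4*, *Cd36* and *Lpl* stayed within −0.48 and 0.23.

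**Figure D2:**
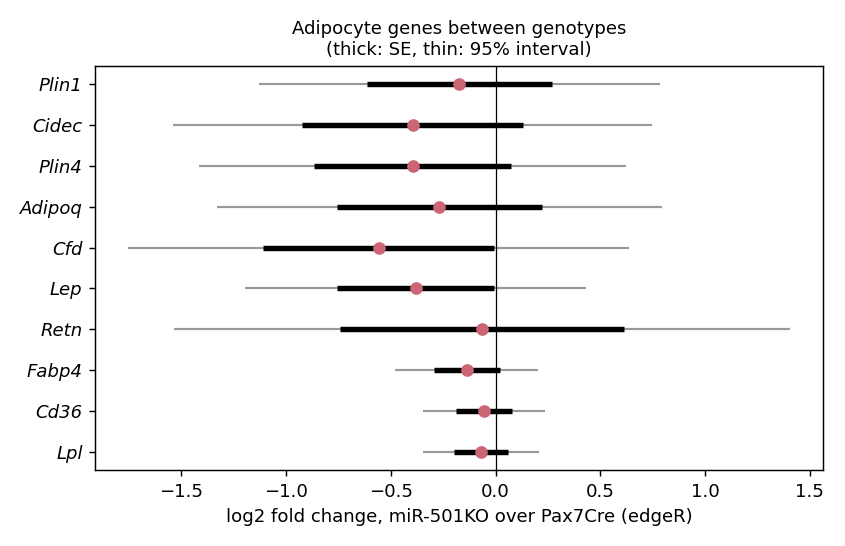
The edgeR log2 fold change (miR-501KO over Pax7Cre) of each adipocyte gene, with its SE as a thick bar and its 95% interval as a thin bar. All points lie between −0.56 and −0.056 and all intervals cross 0, those of *Fabp4*, *Cd36* and *Lpl* being the narrowest.

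Levels of different genes were compared per length, in RPKM (CPM divided by the kilobases of merged exon), as the mean over the 10 mice. *Fabp4* was the highest at 56.9 ± 10.4 RPKM (SD, n = 10), followed by *Cd36* at 44.4 ± 7.13 and *Lpl* at 21.6 ± 3.22. *Cfd* at 11.8 ± 7.48 and *Adipoq* at 10.9 ± 5.90 did not differ beyond their spread. *Plin4* stood at 3.56 ± 2.30 RPKM, *Cidec* at 1.66 ± 0.902 and *Plin1* at 1.25 ± 0.562, again within their spread of each other for the last 2. *Lep* at 0.350 ± 0.169 and *Retn* at 0.265 ± 0.178 closed the order. With the longest coding transcript as the length, *Fabp4* was at 285 RPKM, and *Lpl* passed *Cd36* (55.0 against 46.9), *Plin1* passed *Cidec* and *Retn* passed *Lep*, so the order of these neighbours is not fixed by the data.

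The sum of all 10 genes is therefore mostly a sum of the shared ones. *Fabp4*, *Cd36* and *Lpl* took 92.0% of the reads of the members. The 6 restricted genes took between 0.761% (miR-501KO mouse 1) and 8.34% (Pax7Cre mouse 3). Of the restricted reads, 41.4% were from *Adipoq*, 29.5% from *Cfd*, 16.2% from *Plin1*, 8.45% from *Cidec*, 3.25% from *Lep* and 1.18% from *Retn*.

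The summed level of the 6 restricted genes was 17.2, 49.6, 68.7, 29.0 and 40.2 CPM in Pax7Cre mice 1 to 5 and 4.52, 52.3, 48.1, 26.5 and 28.6 CPM in miR-501KO mice 1 to 5. The highest mouse stood 15.2-fold above the lowest. Counting error was small beside this: the 113 reads of miR-501KO mouse 1 give an exact 95% Poisson interval of 3.73 to 5.44 CPM, and the 1300 reads of Pax7Cre mouse 3 one of 65.0 to 72.5 CPM. Within a genotype the range was 3.98-fold in Pax7Cre and 11.6-fold in miR-501KO, and without miR-501KO mouse 1 the whole range was 3.98-fold. Knockouts averaged 32.0 ± 19.1 CPM and controls 40.9 ± 19.7 CPM (SD, n = 5), a log2 ratio of −0.36 that shrank to −0.075 without miR-501KO mouse 1 and to −0.088 without Pax7Cre mouse 3. In bulk muscle, fewer fat cells and less of these RNAs per fat cell cannot be told apart. The summed level of the 4 shared genes ran only from 505 to 858 CPM, a 1.70-fold range. For this sum miR-501KO mouse 1, at 589.9 CPM, was the lowest knockout, and Pax7Cre mouse 4 was the lowest of all mice.

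The spread between mice of a genotype, after counting error was taken off, put the restricted genes among the most variable of the muscle. The coefficient of variation was 0.633 for *Cfd*, 0.628 for *Retn*, 0.561 for *Adipoq*, 0.541 for *Cidec*, 0.462 for *Plin1* and 0.444 for *Lep*. The median over all 14410 genes was 0.112 and the 90th percentile 0.257, and these 6 ranked between 88 (*Cfd*) and 280 (*Lep*) from the top. *Plin4* ranked 67, at 0.668. *Fabp4* at 0.186, *Cd36* at 0.168 and *Lpl* at 0.155 were above the median and below the 90th percentile.

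Most pairs of restricted genes went up and down together across mice. All 10 pairs among the 5 genes other than *Lep* passed the test for Pearson's r and 8 for Spearman's rho. *Lep* passed for r with 1 of 5 partners (*Cfd*) and for rho with 2 (*Cfd* and *Retn*). Whether *Lep* differs from the others was not tested. *Lep* and *Cfd* (r = 0.79, rho = 0.85) were above *Adipoq* and *Retn* (r = 0.74, rho = 0.70). Over the 10 mice, the 15 pairs of restricted genes had a Pearson r of log2(CPM + 0.5) from 0.60 to 0.975 with a median of 0.829, and Spearman's rho from 0.66 to 0.976. After adjustment over the 45 pairs of members, 11 of the 15 had a permutation p under 0.05 for r and 10 for rho, and none of the other 30 pairs did. The closest pair by r was *Adipoq* and *Cidec* (r = 0.975, adjusted permutation p = 0.00030, rho = 0.964), by rho it was *Adipoq* and *Plin1* (rho = 0.976), and the loosest by r was *Adipoq* and *Lep* (r = 0.60, adjusted permutation p = 0.156, rho = 0.66). Without the 2 mice farthest from the median of the restricted sum, miR-501KO mouse 1 and Pax7Cre mouse 3, the median r of the 15 pairs was 0.767, and without the 2 farthest on the first gene of each pair it was 0.677, with a lowest value of 0.25 for *Plin1* and *Lep*. After the genotype means were subtracted it was 0.847. The 6 pairs of shared genes had r from 0.36 to 0.73, and the 24 mixed pairs from −0.26 to 0.61 with a median of 0.386.

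**Figure D3:**
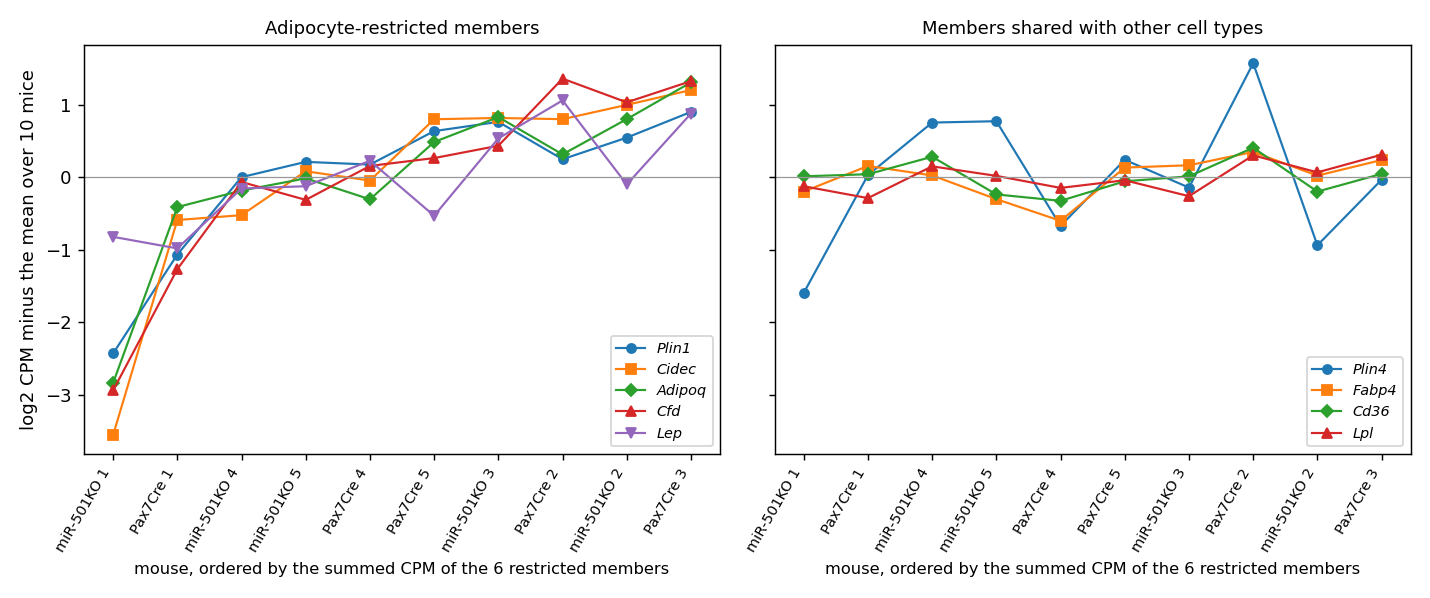
Log2 CPM of each gene minus its mean over the 10 mice, with mice ordered by the summed CPM of the 6 restricted genes from miR-501KO mouse 1 (4.52 CPM) to Pax7Cre mouse 3 (68.7 CPM). *Retn* is left out because it had 0 reads in miR-501KO mouse 1. *Plin1*, *Cidec*, *Adipoq* and *Cfd* climb together on the left panel, while *Fabp4*, *Cd36* and *Lpl* stay near 0 and *Plin4* peaks in Pax7Cre mouse 2 on the right.

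No shared gene passed the test of a relation with the restricted sum. Against its log2 value, *Lpl* had r = 0.46 (rho = 0.55), *Plin4* r = 0.48 (rho = 0.042), *Fabp4* r = 0.41 (rho = 0.49) and *Cd36* r = 0.040 (rho = 0.042), with adjusted permutation p of at least 0.636 for r and at least 0.798 for rho over the 11 relations tested. For *Plin4*, r was −0.026 without miR-501KO mouse 1 and Pax7Cre mouse 3. A missed threshold with 10 mice does not show that a relation is absent.

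The shared genes were also set against markers of the cell types that make them, as 12 relations added after the data were seen. *Fabp4* followed the mean log2 level of 8 endothelial markers (r = 0.86, adjusted permutation p = 0.0176, rho = 0.867, adjusted permutation p = 0.0288). That r was 0.64 without Pax7Cre mice 2 and 4, which lay farthest out in those markers. *Cd36* had r = 0.80 with the endothelial and 0.81 with the 8 mature fiber markers (adjusted permutation p = 0.0232 for each), but the rho of 0.60 and 0.41 had adjusted permutation p of 0.156 and 0.329, and r fell to 0.49 and 0.40 without the same mice. *Plin4* had r = 0.70 with the mature fiber markers (adjusted permutation p = 0.0512, rho = 0.67), and r = 0.51 without these mice. With the 8 macrophage markers, *Plin4* had r = −0.70 and *Lpl* r = −0.71 (adjusted permutation p = 0.0512 for each, rho = −0.64 and −0.71), and without Pax7Cre mice 1 and 4 these were −0.92 and −0.54. The other 6 relations had an adjusted permutation p of at least 0.0551 for r and at least 0.156 for rho. They were *Fabp4* and *Cd36* with the macrophage markers (r = −0.49 and −0.55), *Fabp4* and *Lpl* with the mature fiber markers (r = 0.62 and 0.47), and *Plin4* and *Lpl* with the endothelial markers (r = 0.68 and 0.27). For *Fabp4* and the mature fiber markers r was −0.33 without Pax7Cre mice 2 and 4, and for *Lpl* and the endothelial markers it was −0.27.

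Markers of 7 other cell types of muscle were set against the restricted sum, and none passed the test. The mean log2 level of the 8 FAP markers, such as *Dcn* and *Cd34*, had r = 0.23 (rho = 0.35) with it, the 8 endothelial markers r = 0.25 (rho = 0.24), the 6 regenerating fiber markers r = −0.25 (rho = −0.25), the 8 mature fiber markers r = 0.10 (rho = −0.079), the 6 tendon markers r = 0.059 (rho = 0.26) and the 7 Schwann cell markers r = 0.0054 (rho = 0.091). The macrophage markers had the strongest relation, r = −0.55 (permutation p = 0.0907, adjusted p = 0.636) with rho = −0.43, and −0.57 without the 2 farthest mice. Without these mice r was 0.45 for the FAP, 0.29 for the mature fiber, 0.15 for the endothelial, −0.15 for the regenerating fiber, −0.16 for the tendon and 0.098 for the Schwann cell markers. The adjusted permutation p was at least 0.636 for r and at least 0.798 for rho over all 10 mice, and at least 0.920 for r without the 2 farthest.

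Between genotypes, the summed levels of the same markers overlapped. The FAP markers ran from 1389 to 2347 CPM in Pax7Cre and from 1686 to 1881 CPM in miR-501KO mice, the endothelial markers from 662 to 819.7 and from 662 to 827 CPM, and the macrophage markers from 4529 to 6367 and from 4754 to 5618 CPM. The mature fiber markers ran from 22858 (mouse 4) to 63781 (mouse 2) CPM in Pax7Cre and from 38015 to 48668 CPM in miR-501KO mice. Pax7Cre mice 2 and 4 were thus the ends of the fiber range, and they were also the highest and lowest of *Fabp4* and *Cd36*. What part the fiber content has in those values was not tested. The regenerating fiber markers ran from 5000.2 to 7269 and from 4767 to 7259 CPM, the Schwann cell markers from 137 to 161 and from 132 to 154 CPM, and the tendon markers from 922 to 1201 and from 881 to 1229.5 CPM. None of these 51 markers had an unadjusted edgeR p under 0.05, beside 1.05% of all genes.

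Other genes of fat cells followed the restricted sum to different degrees. Of 14 other adipocyte-enriched genes, 10 passed the filter on low counts, and their r with the restricted sum ran from 0.020 (*Aqp7*) to 0.90 (*Pck1*) with a median of 0.681, beside a median of 0.0085 over all 14410 genes. *Pck1*, which makes the glycerol backbone for triglyceride in fat cells, had the highest r over the 10 mice (r = 0.90, and 0.83 without the 2 farthest). *Pck1* was at 1.21, 4.22, 4.49, 1.08 and 4.02 CPM in Pax7Cre and at 0.320, 3.49, 4.87, 2.54 and 1.44 CPM in miR-501KO mice, a 15.2-fold range. *Lgals12*, a galectin of the droplet surface, had r = 0.86 on 3 to 26 reads, and without the 2 farthest mice its r of 0.89 was above that of *Pck1*. *Thrsp* had r = 0.52 and *Sncg* r = 0.12. Without the 2 farthest mice *Aqp7* had r = 0.50, *Sncg* r = 0.26 and *Thrsp* r = 0.14, so the low end of the list is not fixed by the data. Between genotypes 0 of the 10 had an edgeR unadjusted p under 0.05, beside 1.05% of all genes. Their median log2 fold change was −0.18, with 8 below 0, beside 52.1% of all genes. The most expressed of them were *Thrsp*, a lipogenic gene (63.8 against 52.7 CPM), *Sncg* (10.9 against 10.4 CPM), *Aqp7*, a glycerol channel (5.64 against 5.76 CPM), and *Pck1* (3.00 against 2.53 CPM), in Pax7Cre against miR-501KO mice.

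Among 13 genes of triglyceride synthesis, *Scd1*, the desaturase that makes oleate for storage, followed the restricted sum with r = 0.95 and ranked 6 of 14410 genes. *Scd1* was at 69.0, 126, 145, 99.8 and 135 CPM in Pax7Cre and at 43.5, 123, 142, 98.3 and 129 CPM in miR-501KO mice. Mouse 1 was the lowest of each genotype, with a 3.32-fold range on 1087 to 3399 reads, and r without the 2 farthest mice was 0.85. Its paralog *Scd2* (202 against 210.3 CPM), *Acly* (67.9 against 68.0 CPM) and *Gpd1* (261 against 273 CPM) were the other most expressed, and the median r of the 13 genes was 0.189. Between genotypes 0 of 13 had an unadjusted edgeR p under 0.05, beside 1.05% of all genes. Of their log2 fold changes 4 were below 0, beside 52.1% of all genes.

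For 12 transcription factors of fat cell formation, the median r with the restricted sum was 0.236, and none had an unadjusted edgeR p under 0.05 between genotypes. *Cebpa* was at 44.3 ± 7.75 CPM in Pax7Cre and 45.2 ± 7.37 in miR-501KO mice (SD, n = 5), *Rxra* at 82.9 ± 10.8 and 80.2 ± 5.47, *Srebf1* at 49.97 ± 5.38 and 52.0 ± 5.34, and *Ebf1* at 47.1 ± 5.71 and 44.6 ± 5.33. The 8 log2 fold changes below 0 and 4 above it had a median of −0.040, beside 52.1% of all genes below 0.

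The remaining lipid lists gave the same count of 0 genes at an unadjusted edgeR p under 0.05, beside 1.05% of all genes. They were 10 other lipid droplet genes with a median log2 fold change of −0.015 (*Plin2* at 119 and 114 CPM, *Plin3*, *Fitm1* and *Fitm2* leading by level), 6 lipolysis genes with −0.12 (*Pnpla2*, *Lipe*, *Mgll*, *Pde3b*), 6 partners of lipoprotein lipase with −0.054 (*Apoe*, *Sel1l*, *Angptl4*, *Vldlr*), 11 fatty acid transport and oxidation genes with −0.048 (*Hadha*, *Acadl*, *Fabp3*, *Fabp5*) and 6 adipokine receptors with −0.0053 (*Adipor1*, *Cdh13*, *C3ar1*, *Adipor2*). *Lipe*, hormone-sensitive lipase, had the highest r of these with the restricted sum, 0.77 and 0.75 without the 2 farthest mice. *C3ar1* had the lowest, −0.77 and −0.76 without them. *Adipor1*, the muscle receptor for adiponectin, was at 176 ± 25.4 CPM in Pax7Cre and 181 ± 15.0 in miR-501KO mice (SD, n = 5).

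Markers of brown fat cells were scarce or shared with other cells. *Ucp1*, the uncoupling protein that defines brown fat cells, had 0 reads in 8 mice, 1 read in Pax7Cre mouse 5 and 3 reads in miR-501KO mouse 3. Of 10 brown adipocyte genes 7 passed the filter, with *Cox8b*, *Dio2*, *Ppargc1a* and *Prdm16* the highest, genes that muscle fibers or other cells also make. *Dio2*, which activates thyroid hormone, was at 26.5 ± 3.95 CPM in Pax7Cre and 22.4 ± 2.56 in miR-501KO mice (log2 fold change −0.24, SE 0.11, unadjusted p = 0.0598, edgeR adjusted p = 1.00).

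Over all genes tested outside these lists, the 10 most like the restricted sum by r over the 10 mice were *Hp*, *Bmper*, *Bace2*, *Slc36a2*, *Tm6sf1*, *Ildr2*, *Eid2*, *Cdo1*, *Abca9* and *Wfdc21*, with r from 0.97 to 0.83. Only 32 of 14410 genes (0.222%) had an r over 0.8, and these include restricted genes themselves. *Hp*, haptoglobin, which binds free hemoglobin, had r = 0.97 and 0.88 without the 2 farthest mice. It was at 14.0, 34.9, 46.0, 23.3 and 20.6 CPM in Pax7Cre and at 4.56, 34.5, 28.4, 18.7 and 14.2 CPM in miR-501KO mice, a 10.1-fold range. For the other 9 genes r without the 2 farthest mice lay between 0.40 (*Cdo1*) and 0.72 (*Bmper*), so their place in this list rests in part on these mice. Between genotypes none of the 10 had an unadjusted edgeR p under 0.05, beside 1.05% of all genes. The lowest edgeR p was 0.0911 for *Wfdc21*, which had 3 to 24 reads.

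**Figure D4:**
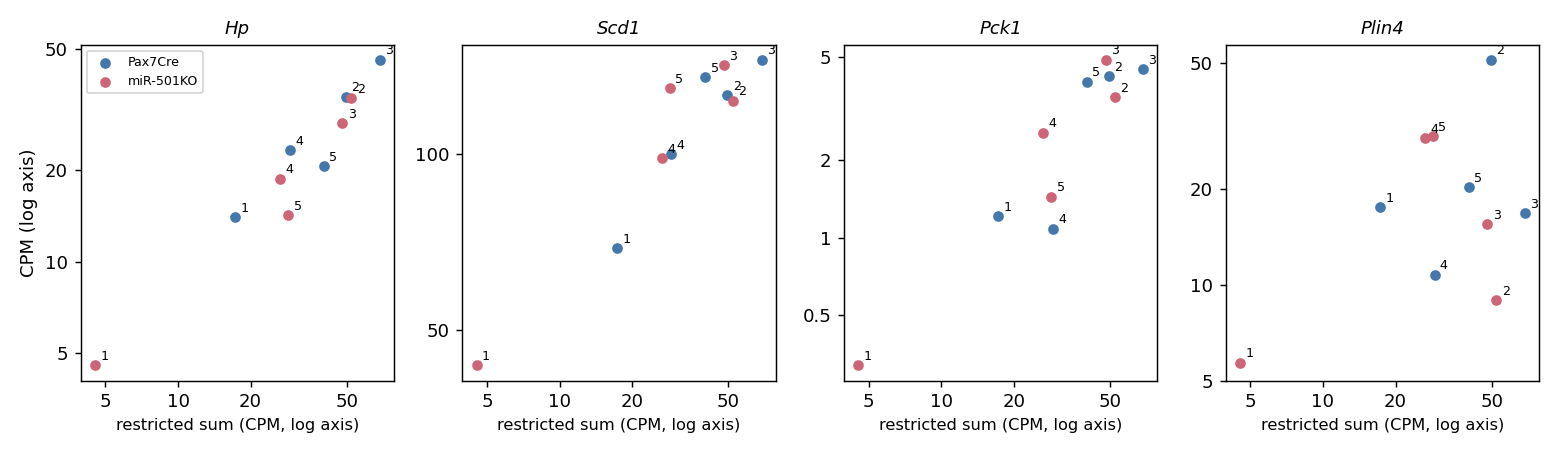
CPM of *Hp*, *Scd1*, *Pck1* and *Plin4* against the summed CPM of the 6 restricted genes in each mouse (log axes, blue Pax7Cre, red miR-501KO, with mouse numbers). *Hp*, *Scd1* and *Pck1* climb with the sum (r = 0.97, 0.95 and 0.90), and *Plin4* at similar sums ranges from 8.97 to 51.2 CPM.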

How the data were processed

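TA muscle mRNA of 5 Pax7Cre and 5 miR-501KO mice was sequenced as 100 bp single-end reads from stranded libraries. Alignment was done by the authors in STAR, and their deposited values are raw counts for each gene and mouse. Per the labels, featureCounts, R 3.5.1 and GRCm38.p5 were also used. How strand and multiply matching reads were treated is not given in the sources used here.

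Symbols came from GENCODE M21 (25664 of 25700 genes matched). TMM factors came from edgeR 4.0.16 (R 4.3.3), which kept 14410 genes (filterByExpr, minimum count 10, minimum total 15), all 10 members among them, and ran the quasi-likelihood test with Benjamini-Hochberg adjustment over all genes. DESeq2 1.42.0 was an alternative. Single genes had exact two-sided permutation tests. Relations across mice used log2(CPM + 0.5) with 100000 permutations, and their p were adjusted within families of 11, 12 and 45. The 2 mice left out there are those farthest from the median of the measure on the x axis. The edgeR fit was tested on simulated counts, where 92.5% of 200 genes given a log2 change of 1 were recovered. None of those genes was as scarce as *Retn*. That share does not apply to the restricted genes, whose spread between mice is larger than that of most genes. Intervals and limits from counts cover counting error only. Depth per mouse is given with the samples.

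The members and gene lists were chosen with earlier results of these data known. Genes named from other lists are the 4 with the highest mean CPM and any with an unadjusted p under 0.05, and 10 more were named for their likeness to the restricted sum. *Lgals12*, *Ucp1* and the genes most like *Plin4* were named after their values were seen, and 1 of the latter is not reported here. The alternatives were other size factors, other filters, DESeq2's Wald test, a replicate block, leaving out each mouse, sums without *Cfd* or *Adipoq*, log2 values in the permutation test, and genotype means subtracted. Transcript length and the relations of the shared genes were added after seeing the data. The labels do not say that the deletion is confined to the myogenic lineage, which is taken from the study's methods. P-values set a genotype difference or a relation against the variation between these mice.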

Additional observations from a re-analysis of the deposited data

Results flagged for a closer look

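Of 36 groups of 5 mice searched (each of the 10 members, the restricted sum and each of 7 summed marker lists, in each genotype), 3 had a mouse whose gap to the nearest of the others was large beside the range of its group. Chance alone flags about 1 in 20 groups, or 1.8 here. *Fabp4* in Pax7Cre mouse 4 was the lowest of its group at 165.7 CPM, the others lying between 275.9 and 320.4 CPM. *Plin4* in Pax7Cre mouse 2 was the highest at 51.2 CPM, the others lying between 10.8 and 20.3 CPM. The summed mature fiber markers in miR-501KO mouse 4 were the highest at 48668 CPM, the others lying between 38015 and 41070.5 CPM. The 6 restricted genes had no such mouse in either genotype, although miR-501KO mouse 1 was the lowest of its group for each of them.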

How the results depend on the processing

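No gene passed an adjusted p of 0.05 under DESeq2 or upper-quartile size factors, no filter, a minimum of 10 counts per mouse, DESeq2's Wald test, the replicate block, or when each of the 10 mice was omitted in turn. The count of members at an unadjusted p under 0.05 was 0 and moved to 1 with a replicate block (*Cfd*, log2 fold change −0.66, edgeR unadjusted p = 0.00543, adjusted p = 1.00), where 1.31% of all genes passed and 0.708% passed with a lower level in miR-501KO. Across leave-one-out fits it ran from 0 to 1 (*Fabp4*, −0.27, edgeR unadjusted p = 0.0233, adjusted p = 0.996, without Pax7Cre mouse 4), where 3.24% of all genes passed. The labels do not say whether mice of the same number form a pair, and these data do not settle it. Same-numbered mice had correlated deviations of 0.337, −0.154, 0.156, −0.305 and 0.204 for numbers 1 to 5. Of the 5 control mice, 3 correlated best with the knockout of their own number.

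Leaving out a mouse turned the direction for *Plin4* (0.11) and *Cd36* (0.050) without Pax7Cre mouse 2, for *Adipoq* (0.078), *Plin1* (0.021) and *Lpl* (0.0059) without Pax7Cre mouse 3, and for *Adipoq* (0.021) and *Plin1* (0.11) without miR-501KO mouse 1. Over all 10 such fits the lowest and highest log2 fold changes were −0.51 and 0.078 for *Adipoq*, −0.39 and 0.11 for *Plin1*, −0.66 and 0.11 for *Plin4*, −0.14 and 0.050 for *Cd36*, −0.14 and 0.0059 for *Lpl*, and −0.38 and 0.28 for *Retn*, which turned in 5. *Cidec* (−0.71 to −0.088), *Cfd* (−0.94 to −0.27), *Lep* (−0.59 to −0.13) and *Fabp4* (−0.27 to −0.068) stayed below 0. The log2 ratio of the restricted sums stayed below 0, from −0.61 to −0.075.

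Relations with the restricted sum changed sign for *Plin4* (−0.026 without the 2 farthest mice), tendon markers (−0.16, same mice) and Schwann cell markers (−0.026, genotype means subtracted). With coding transcript lengths *Fabp4* stood at 285, *Lpl* at 55.0 and *Plin1* at 2.07 RPKM. The other 101 values outside the leave-one-out fits kept their direction and side of the threshold. The cause of these changes was not tested, beyond the fewer mice in a fit. Counts of 0 to 42 reads limit *Retn* and *Lep*.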

Other observations

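The genes most like *Plin4* were not the restricted fat cell genes. Ranked by r of log2(CPM + 0.5) with *Plin4* over the 10 mice, among 14410 genes, the first 10 included *Coq10a*, *Rilpl1*, *Dhrs11*, *Clip4*, *Tarsl2*, *Cpeb3*, *Clasp2*, *Acsl6* and *Gpt*, with r from 0.957 to 0.934. *Coq10a* (117 CPM) serves coenzyme Q in mitochondria and *Gpt* (21.0 CPM) is alanine aminotransferase. These ranks were chosen after the data were seen and carry no test.

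*Comp*, a cartilage and tendon matrix gene from the tendon list, had r = 0.89 with the restricted sum over 10 mice, at 30.8, 38.9, 46.5, 46.7 and 35.7 CPM in Pax7Cre and 19.5, 37.6, 37.7, 33.2 and 35.0 CPM in miR-501KO mice. Without miR-501KO mouse 1 and Pax7Cre mouse 3 its r was 0.45, so the relation rests in part on these mice.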
